A study of Sus scrofa with 12 samples.

Results

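CXCL13, LTB and CCL21, cytokines that organise lymphoid tissue, were followed in the wall of stented pig coronary arteries. They were taken as all probe sets whose only gene symbol in the array's annotation is CXCL13, LTB or CCL21. This gave 4 of the 24123 probe sets on the array, a brighter and a dimmer one for CXCL13 and 1 each for LTB and CCL21, and all 4 were among the 16799 tested once the dimmest probe sets had been set aside. The genes were chosen by their measured differences between the stent types on these same arrays. A zotarolimus-eluting stent (ZES), a sirolimus-eluting stent (SES) and a bare metal stent (BMS) were compared, each implanted after angioplasty in Yorkshire farm pigs and collected at 28 days, and the series title speaks of overlapping stents. Every stent type was given to 2 pigs and each pig gave 2 segments, which makes 4 arrays per type and 12 in all. In each group replicates 1 and 2 are from 1 pig and replicates 3 and 4 from the other. Segments came from the right coronary artery (RCA) and from the left anterior descending (LAD), but SES replicate 1 came from the left circumflex (LCX). Sirolimus inhibits the kinase mTOR, and zotarolimus is its analog in which a tetrazole replaces a hydroxyl group. The sources used here give no stent doses. All 12 segments were stented, so no group shows the level of an unstented wall.

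CXCL13 is a chemokine that draws B cells and follicular helper T cells, both of which carry its receptor CXCR5, into the follicles of lymphoid tissue. CCL21 acts in the neighbouring T cell zone, where with CCL19 it attracts T cells and dendritic cells through the receptor CCR7, and it is made by lymphatic endothelium and lymphoid stromal cells. LTB, lymphotoxin beta, is a membrane protein of lymphocytes that joins LTA to form the ligand of the receptor LTBR, and signalling through LTBR and NF-kappaB induces CXCL13, CCL19 and CCL21 in stromal cells. Lymphoid aggregates organised in this way are known in the outer coat of diseased arteries.

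The values are log2 signals on 1 scale for all arrays, and a difference of 1 on this scale is a doubling. As background the 95th percentile of 59 controls, whose targets had not been added, was taken on each array. It was 4.72 ± 0.41 with ZES, 4.72 ± 0.54 with SES and 5.51 ± 0.31 with BMS (mean ± SD, n = 4). Between 61.0% and 74.5% of probe sets lay above it. The spike-in controls read 15.30 ± 0.58 with ZES, 15.09 ± 0.43 with SES and 16.30 ± 0.38 with BMS, and the GAPDH control, 3' minus 5' end, was 3.66 ± 0.19 with ZES, 2.71 ± 0.35 with SES and 4.16 ± 0.50 with BMS. The highest SES array was below the lowest BMS array in both controls, and 28S ribosomal RNA was high on ZES replicate 2 (14.10) and BMS replicate 1 (14.57). In the GAPDH control the highest SES array (3.02) was also below the lowest ZES array (3.44). Levels of different probe sets are not set against each other here.

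CXCL13 was high around sirolimus stents and low around the other stents. On its brighter probe set the log2 signal was 4.36, 6.57, 7.07 and 5.98 on ZES replicates 1 to 4. It was 10.88, 10.34, 12.26 and 11.01 on SES replicates 1 to 4. With BMS it was 6.39, 4.77, 8.07 and 6.29. Every SES array lay above every other array, with a gap of 2.27 between the lowest SES array and the highest BMS array, while ZES and BMS overlapped over most of their range. The group means were 5.996 ± 1.18 with ZES, 11.13 ± 0.81 with SES and 6.38 ± 1.35 with BMS (SD, n = 4 each). Only BMS replicate 2 was not above its background level, and the ZES arrays stood 1.28 above it on average, against 6.40 for the SES arrays. In SES the means of the 2 pigs were 10.61 and 11.64, so that the gene was high in both animals.

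The dimmer CXCL13 probe set gave the same order of group means, with smaller gaps between SES and the other groups. Its log2 signal was 4.39, 3.52, 5.47 and 3.08 with ZES. It was 5.47, 6.10, 7.96 and 7.39 with SES. It was 3.59, 4.79, 6.15 and 4.86 with BMS. Here the groups overlapped, with BMS replicate 3 above 2 of the SES arrays. It was above background on 2 of 4 ZES arrays, 4 of 4 SES arrays and 1 of 4 BMS arrays, so the ZES and BMS means, 4.12 ± 1.06 and 4.85 ± 1.05, lie near the limit of what the array can read, against 6.73 ± 1.14 with SES (SD, n = 4 each). On both probe sets the highest SES array was replicate 3 and the highest BMS array was replicate 3.

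LTB was high around both drug-eluting stents. Its log2 signal was 9.07, 7.39, 7.85 and 7.35 on ZES replicates 1 to 4. On SES replicates 1 to 4 it was 8.08, 8.34, 9.60 and 10.09. With BMS it was 6.05, 6.23, 4.70 and 6.17. No drug-eluting stent array overlapped with a BMS array, while ZES and SES overlapped with each other. The means were 7.91 ± 0.80 with ZES, 9.03 ± 0.97 with SES and 5.79 ± 0.73 with BMS (SD, n = 4 each). All 8 arrays of drug-eluting stents were above background, but the BMS arrays stood on average only 0.28 above their level and BMS replicate 3 lay below it, so that a fold against BMS is of a signal close to background. In SES, the pig of replicates 3 and 4 had a mean of 9.84, against 8.21 in the pig of replicates 1 and 2.

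CCL21 was above background on all 12 arrays and its groups overlapped. Its log2 signal was 10.46, 10.84, 8.70 and 8.46 on ZES replicates 1 to 4. It was 10.45, 9.21, 8.78 and 10.09 on SES replicates 1 to 4. It was 6.08, 8.09, 8.90 and 7.88 with BMS. Both drug-eluting groups overlapped with BMS through BMS replicate 3, and BMS replicate 1 was the lowest of all 12. The means were 9.62 ± 1.21 with ZES, 9.63 ± 0.77 with SES and 7.74 ± 1.19 with BMS (SD, n = 4 each). With ZES the spread was mostly between animals, with pig means of 10.65 and 8.58, and the lower of these lies beside the 8.39 of the higher BMS pig.

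**Figure D1:**
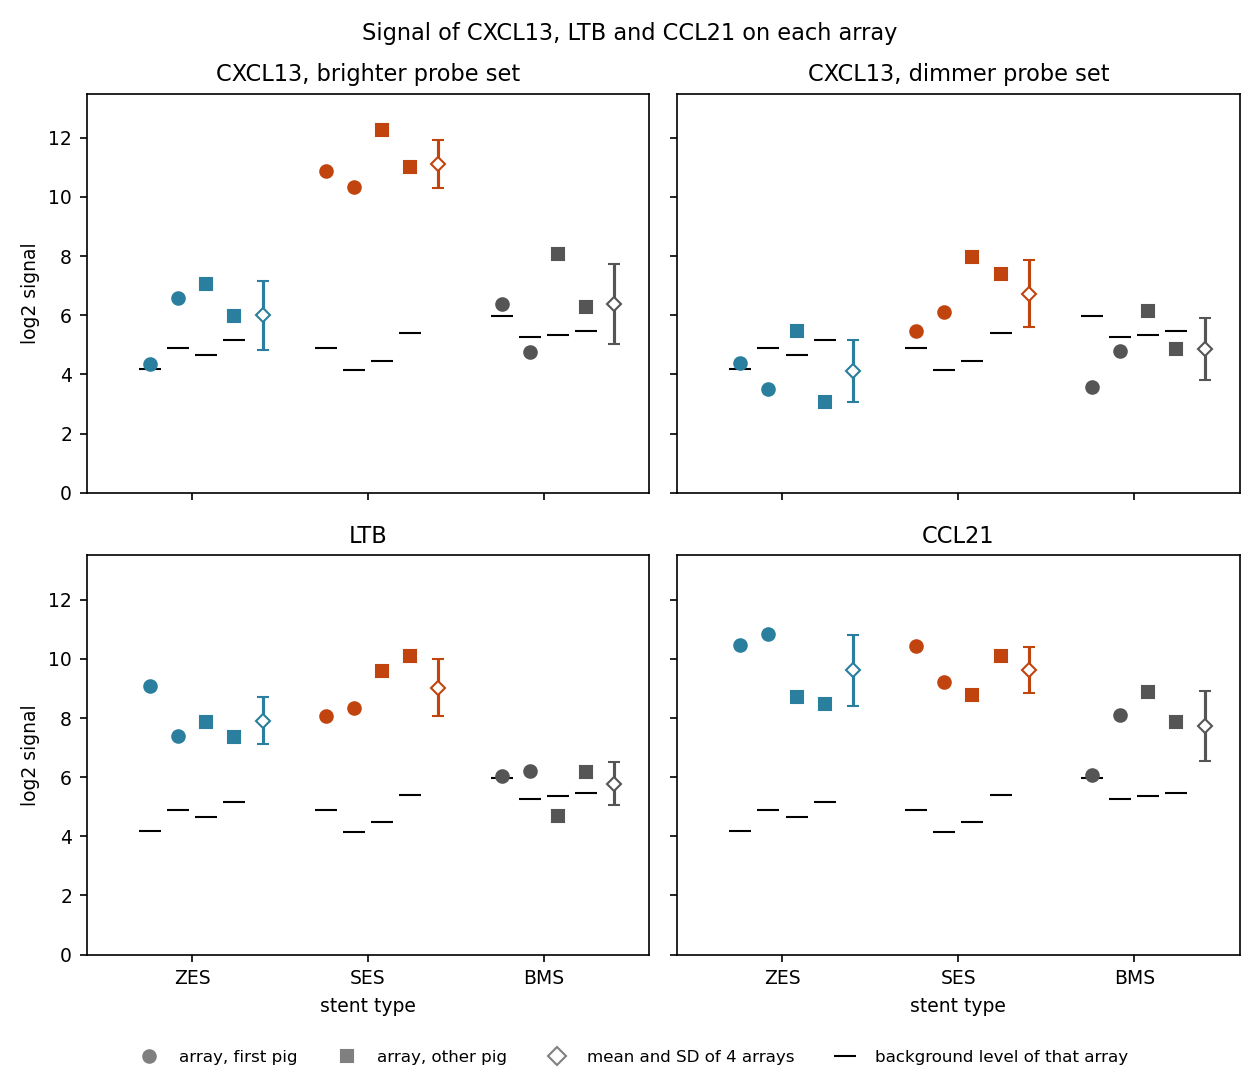
Log2 signal (vertical axis) of the 4 probe sets on each array by stent type, with circles and squares for the 2 pigs of a group, black bars for the background level of that array, and open diamonds with bars for the mean ± SD of 4 arrays. CXCL13 stands apart only with SES on its brighter probe set, LTB with ZES and SES, and CCL21 overlaps between all groups.

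The 3 genes were chosen with the differences between stent types known, so these differences are given as a description with no p-value. In limma 114 of the tested probe sets separated SES from BMS (0.679%, with 0.494% higher in SES), among them the brighter CXCL13 probe set and LTB, both higher. Between ZES and BMS 0 passed in limma (0% of those tested, with 1510 at an unadjusted p under 0.05), and between ZES and SES 12 passed (0.0714%, with 0.0417% lower in ZES), the brighter CXCL13 probe set among the lower ones. These shares are printed for reference, and nothing is read from them, since the same comparisons chose the genes. CCL21 was among the called probe sets in none of the 3 comparisons. Groups that do not overlap were found for 4.23% of all tested probe sets with SES above BMS, 1.58% with ZES above BMS and 3.06% with ZES below SES.

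For SES against BMS the difference was 4.74 ± 0.68 for the brighter CXCL13 probe set (log2, estimate ± SE), which is 26.8-fold. The dimmer one differed by 1.88 ± 0.85, or 3.69-fold. The BMS arrays stood on average only 0.87 above background on the brighter probe set, so the 26.8-fold is against a signal close to background. LTB differed by 3.24 ± 0.58, or 9.45-fold, and CCL21 by 1.89 ± 0.62, or 3.72-fold. In the order of all 16799 differences, from the highest, the brighter CXCL13 probe set stood at 21, LTB at 115, CCL21 at 586 and the dimmer CXCL13 probe set at 593. With the spike-in signal as covariate CCL21 was 0.94 higher in place of 1.89, while CXCL13 was 6.35 and LTB 2.80 higher. The spike-in level and the stent type cannot be told apart, since every SES array read lower than any BMS array. The same holds for the GAPDH control. With it as covariate the brighter CXCL13 probe set was 4.30, the dimmer 0.73, LTB 4.37 and CCL21 1.35 higher.

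For ZES against BMS the brighter CXCL13 probe set differed by -0.39 ± 0.68 and the dimmer by -0.73 ± 0.85, both smaller than their standard errors. LTB was 2.13 ± 0.58 higher, or 4.38-fold, and CCL21 was 1.88 ± 0.62 higher, or 3.67-fold. The CCL21 difference was 1.09 with the spike-in signal as covariate and 0.91 without the 2 arrays of high 28S signal, ZES replicate 2 and BMS replicate 1. The sign of the CXCL13 difference turned with that covariate (0.94). Both comparisons share the BMS arrays.

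The 2 drugs were set side by side at 28 days, at doses not given here. ZES minus SES was -5.13 ± 0.68 for the brighter CXCL13 probe set, 35.0-fold lower with ZES, whose arrays stood on average 1.28 above background. That placed it at position 3 from the lowest of all 16799 differences. For the dimmer probe set ZES minus SES was -2.62 ± 0.85, or 6.13-fold lower. For LTB it was -1.11 ± 0.58, with a 95% interval of -2.33 to 0.11, which does not show that the drugs act alike on it. For CCL21 it was -0.016 ± 0.62, with an interval of -1.33 to 1.30, which leaves room for a difference either way. Of the 3 genes, CXCL13 was therefore ordered SES above BMS above ZES, with the last 2 within their spread. LTB was ordered SES, ZES, BMS, with SES and ZES overlapping, and CCL21 was ordered SES, ZES, BMS, with all neighbours overlapping. In the GAPDH control every SES array read lower than any ZES array, so its level and the stent type cannot be told apart. With it as covariate ZES minus SES was -4.84 and -1.86 for the brighter and dimmer CXCL13 probe sets. It was then -1.85 for LTB and 0.34 for CCL21, and 0 probe sets were called.

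**Figure D2:**
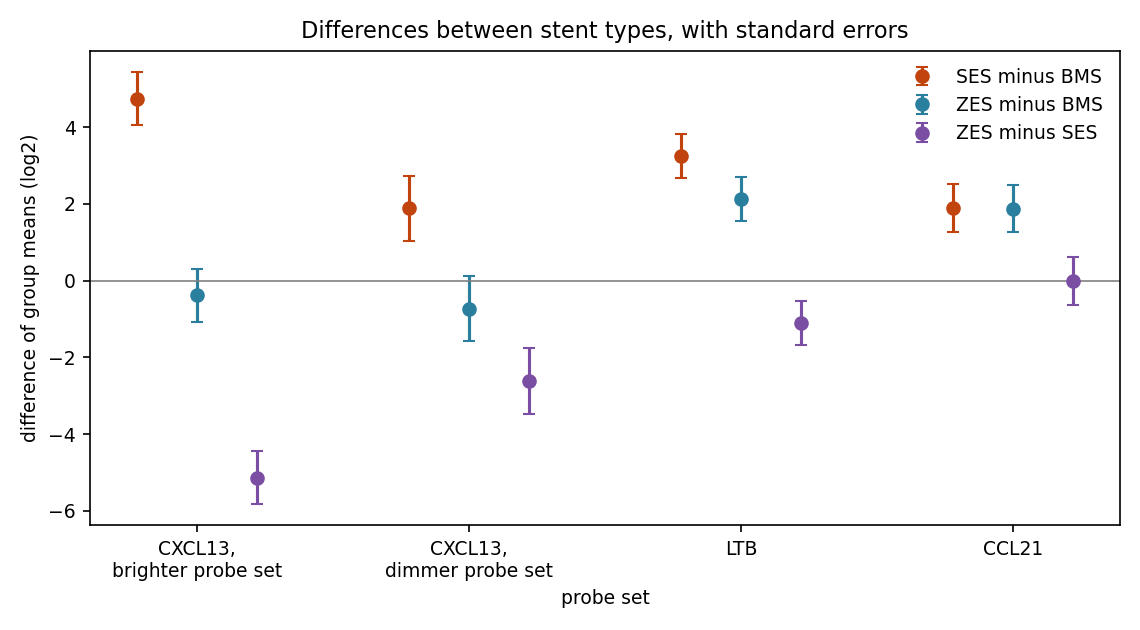
Difference of group means (log2, vertical axis) for the 4 probe sets in the 3 comparisons of stent types, with bars for the standard error. ZES minus SES is -5.13 for the brighter CXCL13 probe set and -0.016 for CCL21.

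The arteries of a pig were not used to choose the genes, so LAD against RCA was tested, within the 5 pigs that had both. None of the 4 probe sets passed in limma with the pig as a block. The brighter CXCL13 probe set differed by -0.71 ± 0.63 (adjusted p = 0.818), with the LAD higher in 1 of 5 pigs, and the dimmer one by -0.79 ± 0.82 (adjusted p = 0.852), also higher in 1 of 5. LTB differed by -0.0095 ± 0.54 (adjusted p = 0.998) and CCL21 by 0.49 ± 0.46 (adjusted p = 0.826), each higher in the LAD in 3 of 5 pigs. The intervals of -2.07 to 0.66 for the brighter CXCL13 probe set and -0.51 to 1.49 for CCL21 are wide. Over all tested probe sets 0 passed in limma (0%), with 1153 at an unadjusted p under 0.05. In the SES pig with an LCX segment, CXCL13 was 10.88 in the LCX and 10.34 in the RCA, LTB 8.08 and 8.34, and CCL21 10.45 and 9.21. On the brighter CXCL13 probe set the arteries of 1 pig differed by at most 2.21 (ZES replicate 2 against replicate 1), against 5.13 and 4.74 between SES and the other stent types. The 5.13 and 4.74 are among the differences by which the genes were chosen, so nothing is read from their size beside 2.21. The stent types were given to different pigs, so differences between arteries of 1 pig do not measure the spread between animals.

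**Figure D3:**
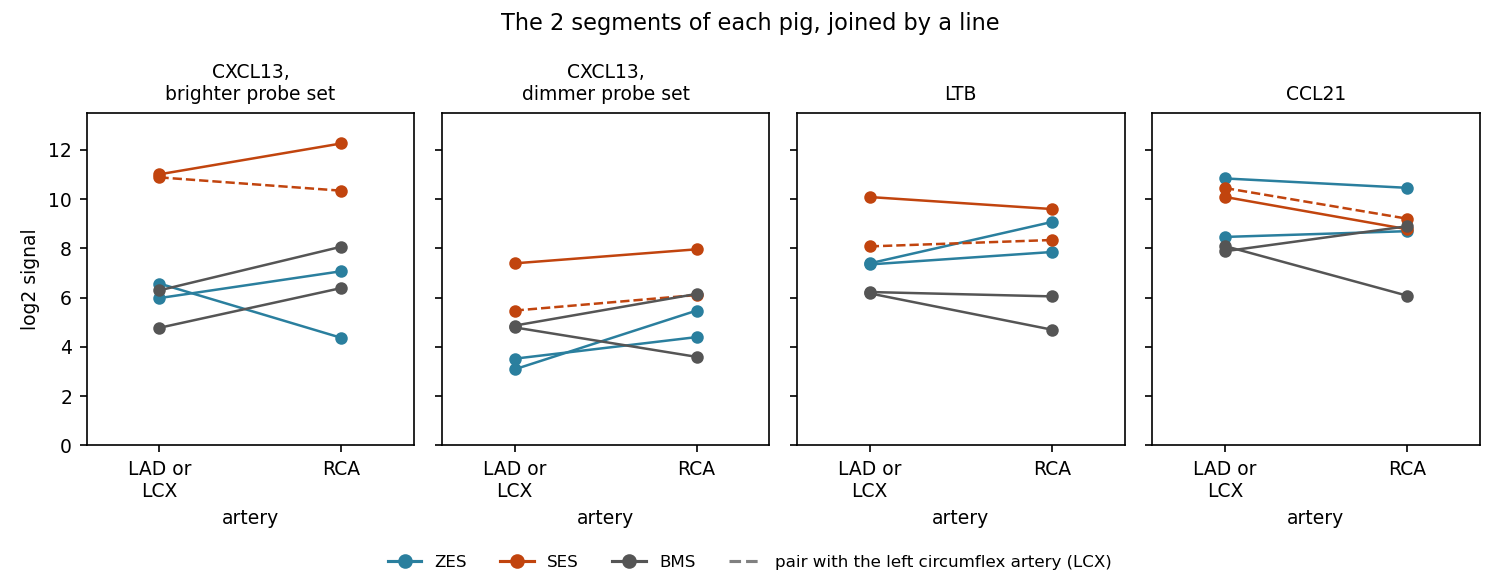
Log2 signal (vertical axis) in the LAD, or the LCX for the dashed SES pair, and in the RCA of each pig, joined by a line, for the 4 probe sets. Lines of one colour belong to 1 stent type, and LTB slopes one way in both ZES pigs and the other way in both BMS pigs.

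The partners of these cytokines were followed as lists of ligands, receptors, NF-kappaB genes and cell markers, 84 genes in all beside the 3. The lists were chosen with earlier results of these data known. They hold 1 probe set per named gene, while the shares beside them cover all tested probe sets, named or not. The shares are therefore given for reference only. Of these, 4 rose in SES against BMS and 0 fell (4.76%, against 0.679% of all tested probe sets), and 0 changed in ZES against BMS or in ZES against SES. At an unadjusted p under 0.05 in limma there were 32 list genes in SES against BMS (38.1%), beside 2408 of all tested probe sets (14.3%). In ZES against BMS there were 18 (21.4%), beside 1510 (8.99%), and in ZES against SES 16 (19%), beside 1686 (10%). The median difference of the 84 list genes was 0.37 in SES over BMS (-0.020 over all probe sets). It was 0.18 in ZES over BMS (-0.014) and 0.013 in ZES over SES (-0.022). The genes that rose were SPIB, CD3E, SH2D1A and ICAM1. LTBR, CXCR5, NFKB2, RELB, MS4A1, CD79A, CR2 and PROX1 could not be read, as the annotation names no probe set for them alone.

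Of the other ligands none passed. CCL19, which shares the receptor CCR7 with CCL21, had log2 signals of 8.98, 12.41, 11.32 and 9.93 with ZES, of 11.98, 11.68, 12.24 and 12.04 with SES, and of 10.18, 12.20, 10.33 and 9.48 with BMS. The SES arrays were close together, within the wide range of the other groups, and the difference of SES from BMS was 1.44 ± 0.60 (adjusted p = 0.275). For ZES against BMS it was 0.11 ± 0.60 (adjusted p = 0.972). CXCL12, a chemokine of stromal cells, differed by 0.95 ± 0.42 in SES (adjusted p = 0.308), and its second probe set by -0.61 (adjusted p = 0.734). CXCL16, a chemokine that is also a scavenger receptor, differed by 0.996 ± 0.41 in SES against BMS (adjusted p = 0.263) and by -1.36 ± 0.41 in ZES against SES (adjusted p = 0.224).

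LTA, with which LTB forms its complex, was above background on 3 of 4 ZES arrays, 4 of 4 SES arrays and 1 of 4 BMS arrays. Its log2 signal was between 6.16 and 6.74 on the SES arrays, against 2.83 to 6.17 on the BMS arrays, and the difference was 1.56 ± 0.83 (adjusted p = 0.409). TNF, the related inflammatory cytokine, differed by 0.14 ± 0.98 in SES (adjusted p = 0.968) and by -0.60 ± 0.98 in ZES against BMS (adjusted p = 0.898). TNFSF10, a death ligand, differed by -0.39 ± 0.67 and -0.83 ± 0.67 (adjusted p = 0.833 and 0.746). Of these 3 ligands, 2 were positive in SES against BMS and 1 in ZES against BMS.

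Among receptors, CCR7 was not above background on 2 of 4 ZES arrays, 2 of 4 SES arrays and 2 of 4 BMS arrays, and differed by -1.55 ± 1.11 in SES against BMS (adjusted p = 0.555). CXCR4, the receptor of CXCL12, had a difference of 1.58 ± 0.65 (adjusted p = 0.269). TNFRSF1A, a receptor of TNF, had 0.69 ± 0.44 and also did not pass. In the NF-kappaB list 3 genes were measured. NFKBIA, the inhibitor that NF-kappaB itself induces, differed by 1.35 ± 0.31 in SES (adjusted p = 0.0569) and by 0.71 ± 0.31 in ZES (adjusted p = 0.524), both against BMS. IKBKG, a subunit of the kinase complex, differed by 2.22 ± 0.49 in ZES against BMS (adjusted p = 0.265) and its second probe set by 0.85 (adjusted p = 0.682).

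Lymphocyte genes were among those that rose in SES. SPIB, a transcription factor of B cells and plasmacytoid dendritic cells, had log2 signals of 7.55, 4.34, 8.20 and 3.80 with ZES, of 8.56, 7.87, 10.52 and 9.73 with SES, and of 4.42, 6.70, 4.04 and 4.66 with BMS. It rose by 4.22 ± 0.93 in SES against BMS (limma, adjusted p = 0.0471), with all 4 SES arrays above all BMS arrays and 3 BMS arrays not above background. CD79B, part of the B cell receptor complex, was 5.82, 5.26, 8.97 and 8.03 with SES, against 5.56, 4.37, 6.46 and 5.22 with BMS, high in the SES pig of replicates 3 and 4 where LTB was also higher, and its difference was 1.62 ± 0.96 (adjusted p = 0.461). The other B cell genes, BTK and BLNK, named after their values were seen because the list has only 4 members, differed by 0.51 and -0.52 (adjusted p = 0.661 and 0.532). The 4 B cell genes together summed to 3552 to 8470 linear signal units with ZES, 5167 to 7656 with SES and 3021 to 10680 with BMS, and these sums overlapped between all groups. The mean log2 signal of the 4 genes, which gives each gene equal weight, was 7.16 to 9.26 with ZES, 9.01 to 10.60 with SES and 7.95 to 8.74 with BMS, so that on this scale every SES array lay above every BMS array. This separation rests mainly on SPIB, whose difference of 4.22 was the largest of the 4, while BLNK had the opposite sign. It is not read as a trait of the B cell genes together. Of all tested probe sets, 4.23% had every SES array above every BMS array.

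CD3E, which belongs to the T cell receptor complex, averaged 6.71 ± 0.81 with ZES, 7.62 ± 0.27 with SES and 2.73 ± 1.84 with BMS (SD, n = 4 each). No BMS array was above background, and every ZES and SES array was above background and above every BMS array. It rose at least 4.33-fold in SES against BMS (limma, adjusted p = 0.0172), and was at least 2.29-fold higher in ZES against BMS without passing (adjusted p = 0.256). SH2D1A, an adaptor of T and NK cells needed by follicular helper T cells, rose by 3.72 ± 0.75 (limma, adjusted p = 0.0290), with 3 BMS arrays not above background, and differed by 1.55 ± 0.75 in ZES against BMS (adjusted p = 0.561). It was the only 1 of 10 listed follicular helper T cell genes that was tested. The 8 T cell genes summed to 660 to 1290 with ZES, 849 to 1790 with SES and 409 to 618 with BMS, and 7 of 8 were positive in SES against BMS with a median of 1.79, and 5 of 8 in ZES against BMS with a median of 0.82. Of 5 plasma cell genes 0 passed in SES against BMS in limma, with 1 at an unadjusted p under 0.05. FKBP11 and TNFRSF17 differed by 0.98 ± 0.32 and 0.70 ± 1.15 in SES against BMS (adjusted p = 0.158 and 0.823), and JCHAIN, the joining chain of secreted antibodies, differed by 0.91 ± 0.71 in SES and 1.59 ± 0.71 in ZES, both against BMS (adjusted p = 0.583 and 0.527). In bulk tissue, more cells of a type and more RNA per cell cannot be told apart. The part of these cells in the differences of CXCL13 and LTB was not tested.

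**Figure D4:**
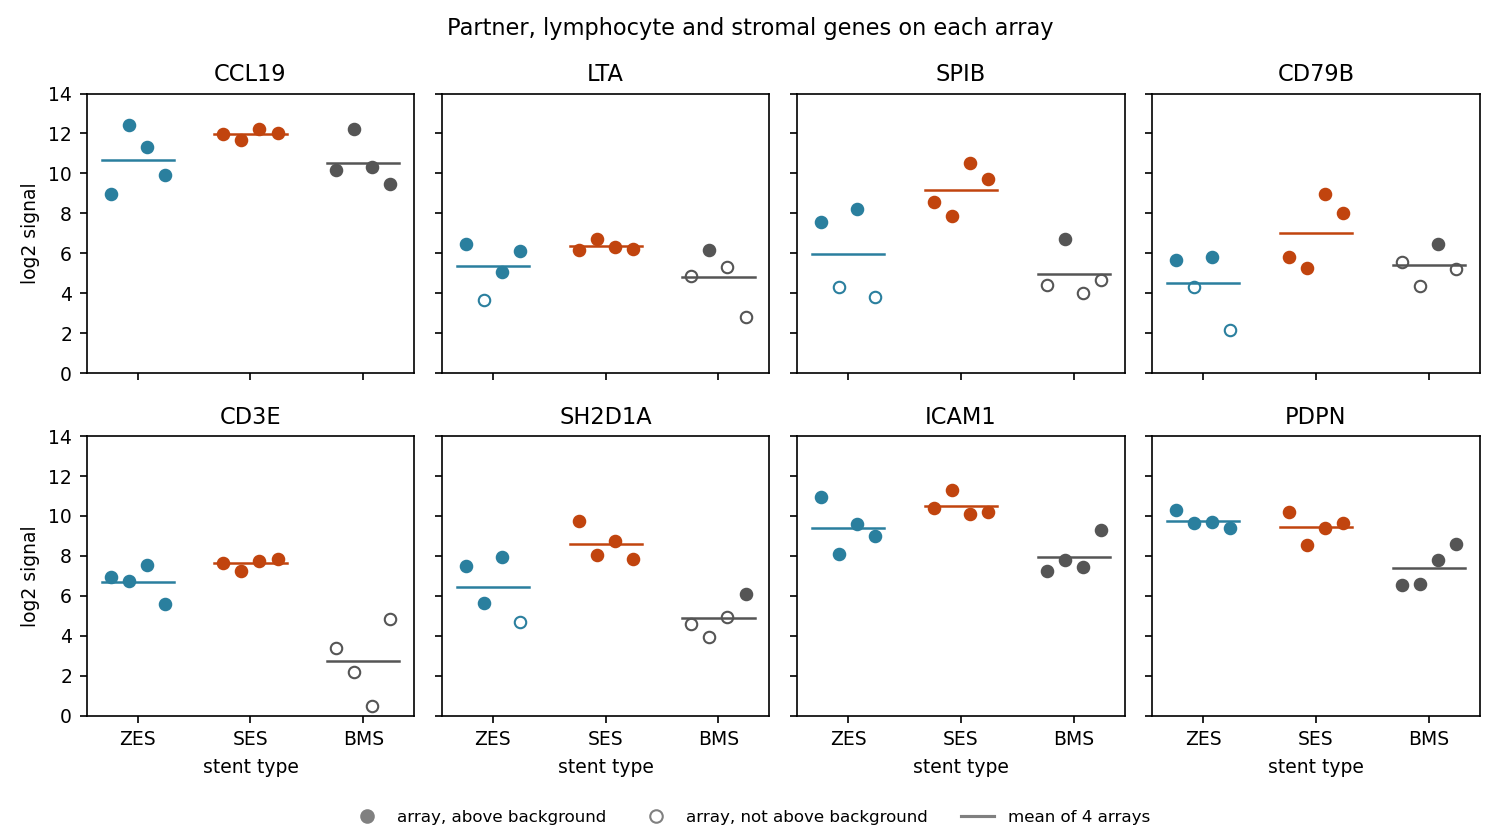
Log2 signal (vertical axis) of 8 partner, lymphocyte and stromal genes on each array by stent type, with open circles for arrays where the gene was not above background and lines for the mean of 4 arrays. CD3E, SPIB, SH2D1A and ICAM1 rose in SES against BMS, and PDPN is higher on ZES arrays than on any BMS array without passing the test.

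A list of genes used as markers of the stroma, follicular dendritic cells and venules of lymphoid tissue was also measured. Which cells of the wall gave their signal was not tested. ICAM1, which binds leukocyte integrins, rose by 2.57 ± 0.55 in SES against BMS (limma, adjusted p = 0.0401) and differed by 1.47 ± 0.55 in ZES against BMS (adjusted p = 0.451). VCAM1, a second adhesion molecule, differed by 0.89 ± 0.39 (adjusted p = 0.292). PDPN, podoplanin, found on lymphatic endothelium and lymphoid stroma, had log2 signals of 10.28, 9.64, 9.70 and 9.38 with ZES, 10.22, 8.56, 9.38 and 9.65 with SES, and 6.55, 6.59, 7.77 and 8.61 with BMS. Its differences against BMS were 2.37 ± 0.48 in ZES (adjusted p = 0.219) and 2.07 ± 0.48 in SES (adjusted p = 0.0569). Of the 8 genes tested in this list 7 were positive in SES against BMS, with a median of 1.46, and 7 in ZES against BMS, with a median of 0.83. MFGE8 was the 1 negative gene in both, at -1.04 ± 0.38 in SES and -0.50 ± 0.38 in ZES (adjusted p = 0.203 and 0.726).

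CCL21 is a product of lymphatic endothelium, of which a list of 3 other markers was measured, with 1 of the 3 positive in each drug-eluting group against BMS. PDPN, which that cell type also carries, stands in the stromal list above and was positive in both. In limma 0 passed, with 1 in SES and 1 in ZES at an unadjusted p under 0.05. LYVE1, a hyaluronan receptor of lymphatic vessels, differed by -0.23 ± 0.57 in SES and by -0.68 ± 0.57 in ZES, both against BMS (adjusted p = 0.886 and 0.753). Its second probe set had the opposite sign, at 0.95 and 0.46 (adjusted p = 0.681 and 0.922). MRC1, shared with macrophages, differed by 2.09 ± 0.68 in SES (adjusted p = 0.157). The 3 listed markers summed to 651 to 1815 with ZES, 891 to 2283 with SES and 639 to 1155 with BMS. Of 9 blood endothelium genes, 6 were positive in ZES against BMS (median 0.46) and 7 in SES against BMS (median 0.39). VWF and CDH5, those of smallest p, differed in ZES against BMS by 3.69 ± 0.89 and 1.86 ± 0.69 (adjusted p = 0.340 and 0.453), and in SES by 1.96 and 1.88 (adjusted p = 0.323 and 0.210). EGFL7 and ESAM, picked after their values were seen, had the opposite sign, at -1.25 and -0.77 in ZES and -1.77 and -1.75 in SES.

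Markers of other cell types of the sample were also read, and none of those below passed in SES against BMS. Smooth muscle genes summed to 74328 to 296087 with ZES, 57696 to 204341 with SES and 186998 to 325118 with BMS, and all 10 had a negative difference in SES against BMS, with 0 past the threshold in limma and 8 at an unadjusted p under 0.05. CNN1, calponin, differed by -3.15 ± 0.81 (adjusted p = 0.0804) and SMTN, smoothelin, by -2.09 ± 0.54 (adjusted p = 0.0804). The second SMTN probe set had the opposite sign, at 1.03 (adjusted p = 0.679). Heart muscle genes summed to 1120 to 16912 with ZES, 554 to 9898 with SES and 3640 to 17310 with BMS. Of 6 heart muscle genes 1 was positive in SES against BMS (median -1.29). PLN and TNNC1, those of largest difference, differed by -2.75 ± 0.63 and -3.11 ± 0.98 in SES against BMS (adjusted p = 0.0569 and 0.144). MYH7 and ACTC1 differed by -0.22 and 0.094 (adjusted p = 0.967 and 0.987). TNNI3 and MYL2 differed by -1.09 and -1.49 (adjusted p = 0.754 and 0.748). Macrophage genes overlapped in their sums, and 2 of 7 were positive in SES against BMS (median -0.41). These were CD14 and CD163, at 0.90 ± 0.40 and 0.85 ± 0.45 (adjusted p = 0.308 and 0.411), while the other 5 lay between -0.71 and -0.28. All 5 dendritic cell genes were positive (median 0.34), with CD83 and CD86 at 0.34 and 0.24 (adjusted p = 0.776 and 0.894). Of 4 fat cell genes 1 was positive (median -0.31), with LEP and LPL at -0.58 and 1.09 (adjusted p = 0.766 and 0.465) and the second LPL probe set at 0.043 (adjusted p = 0.989). The part of these tissue differences in those of CXCL13, LTB and CCL21 was not tested.

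These calls rest on few arrays. Without SES replicate 3 limma called 0 probe sets between SES and BMS, so that the calls of SPIB, CD3E, SH2D1A and ICAM1 all ended, and the differences were then 3.77, 4.86, 3.66 and 2.70. The differences of CXCL13, LTB and CCL21 without that array were 4.36, 3.05 and 2.18. The calls of these 4 list genes also ended without SES replicate 1 and without SES replicate 2. In those 2 fits 0 list genes passed, and 11 and 13 of all tested probe sets were called.

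The correlations between the 3 genes from segment to segment were weak and differed between the CXCL13 probe sets. After the mean of each stent type was subtracted, the correlation over the 12 arrays was -0.41 between the brighter CXCL13 probe set and LTB, -0.11 between it and CCL21, and -0.11 between LTB and CCL21. The dimmer CXCL13 probe set had the opposite sign, at 0.29 with LTB and 0.14 with CCL21. These are descriptions over arrays that share pigs in pairs. The 2 CXCL13 probe sets correlated at 0.46 in this way, and at 0.80 before the group means were subtracted.

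Of 5792 other named genes, those most like the brighter CXCL13 probe set over the 12 arrays were QKI, RRM2B, EML4, JAK1 and PRDX2, with Pearson correlations of 0.89, 0.86, 0.86, 0.85 and 0.85. JAK1, a kinase of cytokine receptors, was also among the 5 most alike after group means were subtracted, at 0.85, with ACADSB, HSF1, AGT and PARP10 at 0.87, 0.86, 0.86 and 0.85. For the dimmer CXCL13 probe set the most alike gene was CD79B, at 0.88 over the arrays and 0.79 within groups. LOC100517166, NECAP2, TSPAN33 and APEX1 followed over the arrays, at 0.87, 0.87, 0.85 and 0.83. Within groups its 5 most alike genes were AP1S1, GEMIN8, BUB3, NSL1 and BAIAP2L1, at 0.88, 0.87, 0.85, 0.84 and 0.82, and CD79B was not among them. LTB was most like TIMP1, an inhibitor of matrix proteases, at 0.90, followed by OSGEP, ANTXR2, ATG4D and CD3E at 0.90, 0.89, 0.89 and 0.89. Within groups LTB was most like ACAD8, PIH1D2, EGFR, ATG4D and PIGB, at 0.92, 0.91, 0.85, 0.84 and 0.82. CCL21 was most like RBM12B, ARFIP1, the endothelial junction gene CLDN5, ZNF133 and NARF, at 0.90, 0.83, 0.82, 0.82 and 0.82, and within groups like USP4, MFSD3, NARF, CHKB and TGOLN2, at 0.94, 0.93, 0.91, 0.90 and 0.88. These genes are the highest of 5792, picked for their correlation, over 12 arrays that share group differences and pigs.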

How the data were processed

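RNA was extracted from tissue dissected off each stent, and amplified cDNA was labelled with biotin, per the labels' protocols. The deposited values are log2 signals, which the authors made in Affymetrix Expression Console 5.0 with the MAS5 algorithm (submitters' processing notes). That the base is 2 and each array was scaled was read from the values, and how low signals were treated is not given in the sources used here. The number of arrays limits the precision.

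The platform annotation gives 1 gene symbol to 10069 probe sets, several to 198 and none to 13732. Without the 124 controls and the dimmest 30% by mean signal, 16799 probe sets entered 1 model of all 12 arrays in limma 3.58.1 (R 4.3.3, statmod 1.5.0), with the pig as random block (consensus correlation -0.032) and a variance trend. For LAD against RCA the pig was a fixed block. P-values are two-sided and Benjamini-Hochberg adjusted over all tested probe sets, with a threshold of 0.05. Other genes are represented by their brightest probe set. A gene not above background on any array of a group has a fold only as a bound, against the higher of background and its own signal. Of 210 genes in 16 lists 84 were tested. Named are, per list, the genes past the threshold (at most 4) or else the 2 with the smallest p, a fixed panel, and the 5 genes most like each probe set. The fit was run on simulated arrays with independent noise and no pig effect. That run does not show how the fit handles segments of 1 pig or array quality. Members, lists and rules were chosen with earlier results of these data known. Segments of 1 pig are not separate animals, so p-values measure mainly the spread between segments.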

Additional observations from a re-analysis of the deposited data

Results flagged for a closer look

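Dixon's test for a sample far from the other 3 of its group was run on 60 groups, the 4 probe sets and 16 list sums in 3 stent types, and flagged 2. Chance flags about 1 in 20. LTB on BMS replicate 3 read 4.70, against 6.05 to 6.23 on the other BMS arrays. The summed plasma cell signal on ZES replicate 2 was 14.22 on the log2 scale, against 12.53 to 12.71 on the other ZES arrays, and JCHAIN read 13.78 there, against 9.81 to 10.91. That array was also 1 of the 2 with high 28S ribosomal RNA.

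The LAD minus RCA difference of LTB was -1.68 and -0.50 in the ZES pigs, against 0.18 and 1.47 in the BMS pigs, so that the mean with ZES was lower by 1.92 (-1.92) and each group moved one way. The difference was not tested, and the SES pig with both arteries had 0.49.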

How the results depend on the processing

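Against BMS the sign of LTB and of CCL21 held in all 21 alternatives run for SES and for ZES, and that of CXCL13 in all 23 between SES and either other stent. For CXCL13 in ZES against BMS it held in 20 of 23, and for CCL21 in ZES against SES in 15 of 21. Some of these alternatives leave a difference of group means as it was, so their sign was fixed beforehand. They are those without the pig block, the filter or the variance trend, those on means per pig, and those without an array of the stent type not compared. The genes were also chosen by these differences, so the counts are a description only. CXCL13 in SES against BMS moved to 6.35 with the spike-in covariate, 3.31 as the mean of its probe sets and 1.88 on the dimmer one, and in ZES against SES to -3.87 and -2.62. The dimmer probe set moved to 0.73 in SES against BMS with the GAPDH difference as a covariate and to -1.48 in ZES against SES with a pseudocount of 32. LTB in SES against BMS moved to 4.37 with the GAPDH covariate, and CXCL13 in ZES against BMS to 0.94 with the spike-in covariate. LTB in LAD against RCA turned to 0.087 with quantile normalization and lay between -0.38 and 0.41 with single pigs left out.

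The count of probe sets changed between SES and BMS, 114, was 64 on means per pig, 183 without the filter, 199 with the pseudocount, 19 without a variance trend, 0 with the spike-in and 0 with the GAPDH covariate, and 26 without the arrays of high 28S signal. The 12 between ZES and SES became 6 without the pig block, 4, 48, 47, 6 with quantile normalization, 5 with the spike-in level, 0 without a trend, 0 with the GAPDH covariate and 4. The 0 between ZES and BMS became 3 without the filter. The 4 list genes in SES against BMS became 2 without the pig block, 2 on means per pig, 8 without the filter, 7 with the pseudocount, 1 without a trend, 0 and 0 with the covariates and 1 without the high 28S arrays. With single arrays left out these 4 counts lay between 0 and 415, 0 and 158, 0 and 4, and 0 and 17, and that of list genes in ZES against SES between 0 and 6. The 0 was without SES replicate 3 and the 415 without SES replicate 4, with 11, 13, 39, 55, 175 and 184 without SES 1, SES 2, BMS 1, BMS 2, BMS 4 and ZES 4. The causes were not tested, and the GAPDH and 28S alternatives were chosen after seeing the data. No paired analysis by replicate number was possible because the labels give none.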

Other observations

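Neighbours in the RefSeq annotation of the pig assembly Sscrofa11.1, used for order only, were also read. LTB stands beside TNF and LTA, and CCL21 beside CCL19, whose differences are given above and did not pass. NFKBIL1, 3 coding genes from LTB, had a difference of -2.94 in SES against BMS (adjusted p = 0.0666). CCNG2, the coding gene next to CXCL13 and a cyclin linked to cell cycle arrest, rose by 1.93 in SES against BMS (limma, adjusted p = 0.0437) and differed by 0.93 in ZES against BMS (adjusted p = 0.532). Of all tested probe sets 0.679% passed in SES against BMS. The CCNG2 call ended without SES replicate 3 and with the spike-in or the GAPDH covariate, where 0 probe sets passed. CNOT6L on the other side differed by 1.82 in SES and 1.74 in ZES against BMS (adjusted p = 0.388 and 0.608). SEPT11, CCNI and MRPL1 near CXCL13 differed by 0.77, -0.12 and 0.17 in SES against BMS (adjusted p = 0.449, 0.897 and 0.873). AIF1 near LTB differed by -0.61 (adjusted p = 0.524). These neighbours were looked up after the differences of the 3 genes were known.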
